A study of Mus musculus with 23 samples.

Results

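The genes described here are 9 regulators of early developmental timing in the mouse, Lin28a, Lin28b, Trim71, Hmga2, Hmga1, Igf2bp1, Igf2bp2, Igf2bp3 and Sall4, followed through the open chromatin around them in the embryonic upper jaw. Open chromatin was measured by ATAC-seq, in which the Tn5 transposase cuts and tags accessible DNA, and each sample came as a list of peaks. Overlapping peaks of the 9 lists (1 bp or more) were joined into regions, and a region was given to a gene when that gene was its nearest protein-coding gene in the mm10 RefSeq annotation, at distance 0 inside the gene body and at most 100 kb away. This gave 96 regions for the 9 genes, of 118102 regions and 21627 genes in all.

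The tissue was the mesenchyme of the maxillary prominence of wild-type C57BL/6 embryos, taken on embryonic days (E) 10.5, 11.5 or 12.5. The ectoderm had been peeled away after Dispase II digestion, so that all 3 stages share that treatment. There were 3 biological samples per stage, made of 23 library runs in all, with 1 to 4 runs per sample. The sources used here do not give the number of embryos or litters per sample, so the p-values below rest on spread among these samples only, which may be technical. For each gene that spread is mostly a value pooled over all tested genes.

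LIN28A and LIN28B are RNA-binding proteins of the early embryo that block the maturation of let-7 microRNAs, and let-7 in turn represses Lin28a, Lin28b, Hmga2, Trim71 and Igf2bp1 through sites in their transcripts. TRIM71 (LIN41) is a ubiquitin ligase and RNA repressor of stem and progenitor cells, HMGA1 and HMGA2 are chromatin proteins that bind AT-rich DNA, the IGF2BP proteins bind and stabilise fetal messenger RNAs, and SALL4 is a zinc finger factor of pluripotent and early embryonic cells. In many mammalian tissues several of these genes are highest in the embryo and decline as tissues mature.

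The start sites of these genes differed in base composition, and the promoters below are shown because the called regions lie differently on them. Each line holds the 250 bases before an annotated start (RefSeq, GRCm38.p6), 5′ to 3′ on the gene's strand, with capitals for bases inside a merged region of any list.
Hmga2 (chr10:120476470-120476719, minus strand): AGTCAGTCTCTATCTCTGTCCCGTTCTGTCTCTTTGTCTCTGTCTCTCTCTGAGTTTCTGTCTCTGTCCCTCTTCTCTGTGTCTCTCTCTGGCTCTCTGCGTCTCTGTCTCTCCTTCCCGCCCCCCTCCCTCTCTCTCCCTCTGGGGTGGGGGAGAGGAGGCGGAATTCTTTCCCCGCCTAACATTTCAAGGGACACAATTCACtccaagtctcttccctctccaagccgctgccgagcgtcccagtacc
Igf2bp2 (chr16:22163300-22163549, minus strand): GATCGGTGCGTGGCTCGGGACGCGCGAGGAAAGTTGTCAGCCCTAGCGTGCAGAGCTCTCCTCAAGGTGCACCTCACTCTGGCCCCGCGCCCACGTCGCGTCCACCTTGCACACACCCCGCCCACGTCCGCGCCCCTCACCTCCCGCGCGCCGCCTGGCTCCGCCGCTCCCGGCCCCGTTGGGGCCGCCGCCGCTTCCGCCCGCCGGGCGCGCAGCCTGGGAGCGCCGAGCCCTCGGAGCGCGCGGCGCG
Hmga1 (chr17:27556324-27556573, plus strand): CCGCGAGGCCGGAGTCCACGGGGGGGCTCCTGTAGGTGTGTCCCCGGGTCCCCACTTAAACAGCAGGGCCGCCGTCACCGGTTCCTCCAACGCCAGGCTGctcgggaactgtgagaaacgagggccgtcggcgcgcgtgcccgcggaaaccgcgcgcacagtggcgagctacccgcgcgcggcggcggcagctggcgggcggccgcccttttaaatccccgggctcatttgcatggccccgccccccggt
Lin28b (chr10:45470202-45470451, minus strand): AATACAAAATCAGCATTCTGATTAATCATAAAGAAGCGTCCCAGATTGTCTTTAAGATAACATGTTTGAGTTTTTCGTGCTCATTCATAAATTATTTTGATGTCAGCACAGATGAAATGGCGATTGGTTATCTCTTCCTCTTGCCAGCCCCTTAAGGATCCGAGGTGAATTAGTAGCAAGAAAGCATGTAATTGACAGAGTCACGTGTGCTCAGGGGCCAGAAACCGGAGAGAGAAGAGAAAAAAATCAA
In Hmga2, 204 of the 250 bases lay in a region called by 8 lists, and the 46 bases next to the start lay in a gap between regions. The Igf2bp2 stretch lay wholly within a region called by 7 lists, and the Lin28b stretch, which is inside the annotated body of Lin28b itself, wholly within a region called by 2 lists. In Hmga1 the 100 bases farthest from the start lay in a region called by 1 list.

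Over the windows from 250 bases before to 50 after the start, GC content was 76.7% with 47 CpG dinucleotides in Igf2bp2, 74.0% with 40 in Hmga1, 63.3% with 10 in Lin28a, 60.3% with 25 in Igf2bp3, 59.3% with 19 in Trim71, 57.7% with 12 in Hmga2 and 39.0% with 8 in Lin28b. The median over 21044 promoter windows of 17273 genes was 56.7% GC and 13 CpG. Windows crossed by a region of 6 or more lists made up 23.4% of all and had a median of 25 CpG, and windows crossed by no region made up 46.0% and had a median of 4. Hmga1 thus had a CpG-rich window with few calls, and Hmga2 a window near the median with many. The GC box GGGCGG, searched on both strands, was found 4 times in Hmga1, 2 times in Igf2bp2 and 1 time each in Hmga2, Lin28a and Trim71, and 46.7% of all windows hold it. The CCAAT box (letters CCAAT, 38.5% of all windows) was found 1 time each in Igf2bp3, Lin28b and Trim71. The E-box CACGTG (7.91% of all windows) was found 2 times in Igf2bp3 and 1 time in Lin28b, and the TATA box TATAAA (12.7%) in none of the 7 genes with an entry. These matches describe letters only.

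The lists differed in length. For samples 1, 2 and 3 the number of peaks was 16057, 19095 and 14886 in the E10.5 lists, 5682, 24908 and 41457 in the E11.5 lists, and 26584, 50361 and 19139 in the E12.5 lists. They carry no read counts, so depth is unknown. E11.5 sample 1, the shortest list, called 2 of the 96 regions. The number of calls expected for a gene in each list was therefore taken from a model of list length and region, and a residual is calls minus expected calls over their expected standard deviation. In bulk tissue, fewer cells with an open site and less opening per cell cannot be told apart. As a check of the tissue, a marker was counted as open where at least 2 of 3 lists called a region within 1 kb of its start. Of 14 maxillary mesenchyme markers, 4, 7 and 4 were open in the E10.5, E11.5 and E12.5 samples, with Twist1, Dlx1 and Dlx2 open throughout and Pdgfra, Alx4 and Tfap2a without a call in any list. Open markers at the 3 stages numbered 0, 0 and 0 of 9 for epithelium, 2, 1 and 1 of 7 for endothelium, 1, 1 and 1 of 6 for muscle, 1, 3 and 2 of 7 for neural crest glia and neurons and 0, 1 and 1 of 6 for blood. The part of these cell types in the results on the 9 genes was not tested.

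Most regions of the 9 genes were seen in few lists. Of the 96, 61 were called by 1 list, 15 by 2, 12 by 3 to 5 and 8 by 6 or more. Regions called by 1 list made up 63.5%, against 67.8% of the 107070 regions within 100 kb of any gene, and those called by 6 or more lists 8.33%, against 5.64%. By stage, 30 regions had a call in at least 1 E10.5 list, 54 in at least 1 E11.5 list and 54 in at least 1 E12.5 list, whereas 15, 14 and 16 had calls in at least 2. The last 3 counts were close, but the lists behind them differed in length. Mean list length was 16679, 24016 and 32028 peaks, in order of stage. E11.5 sample 1 called few of the 96 regions, so repeats among the E11.5 lists rested on samples 2 and 3. The matching shares over all regions are not given here, and whether regions repeated equally often at each stage was not tested. E11.5 sample 3 alone called 18 regions and E12.5 sample 2 alone 14, and these were the longest lists of their stages. Of the 96 regions 59 lay inside a gene body and 37 outside, and 17 lay within 1 kb of a gene boundary (17.7%, against 17.3% of all regions within 100 kb). Of the 8 regions called by 6 or more lists, 7 lay within 1 kb of a boundary. The same share over all regions called by 6 or more lists is not given here. Whether the count is particular to these genes was therefore not tested.

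**Figure D1:**
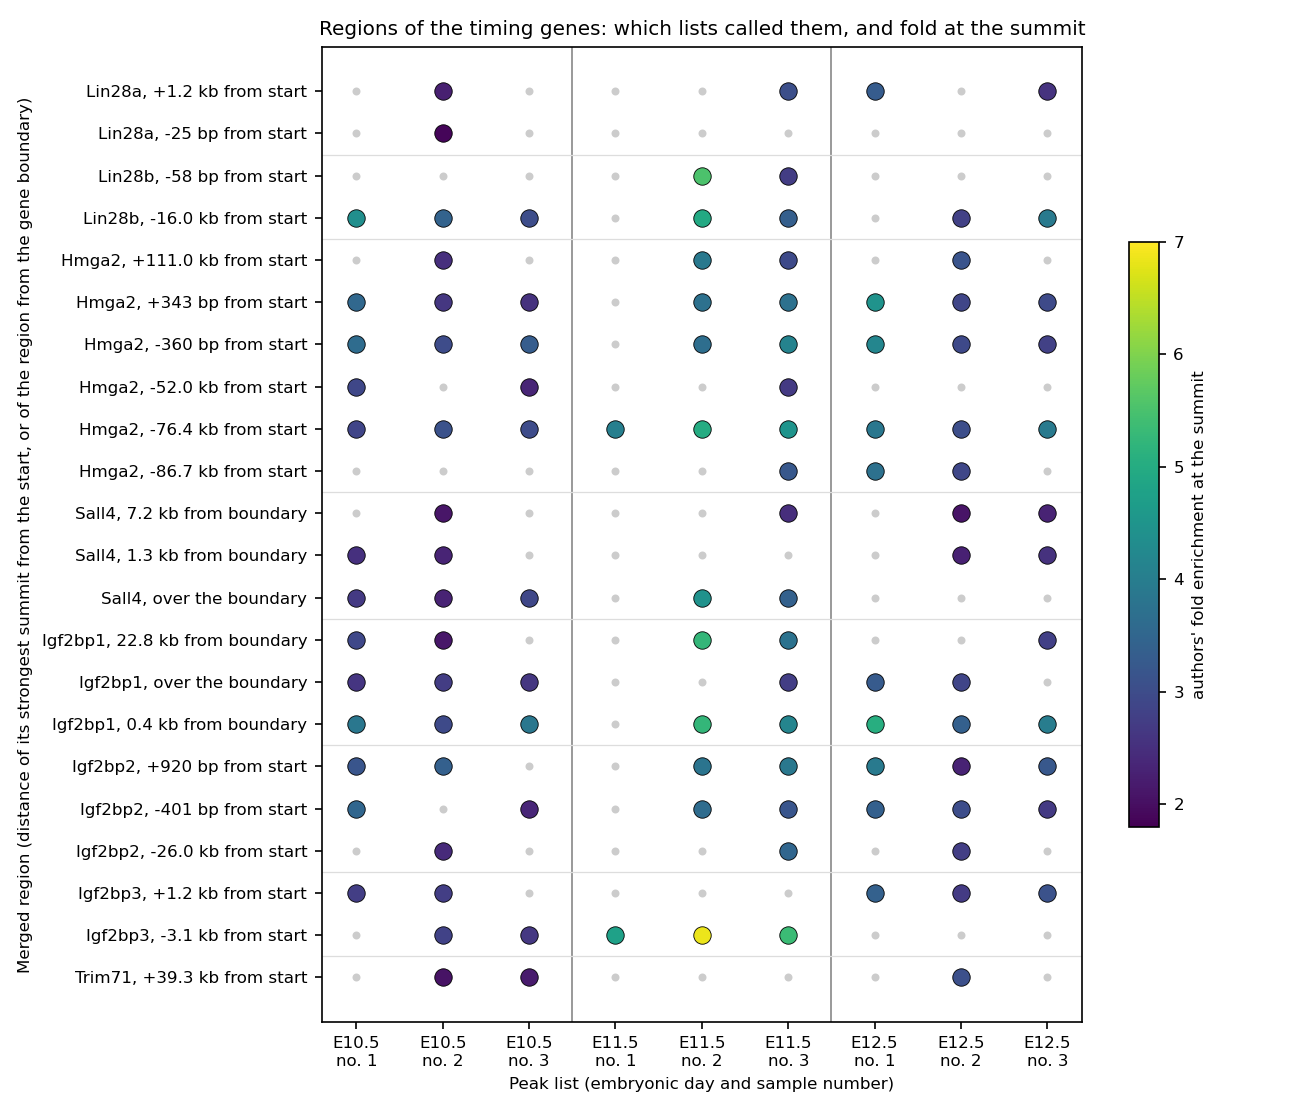
Each row is a merged region of a timing gene that was called by 3 or more lists or overlaps an annotated start, and each column is a peak list, ordered by embryonic day and sample number. Large circles mark a call, coloured by the authors' fold enrichment at the summit, and small grey dots mark no call; rows are named by distance from the start (minus is upstream) or, for Sall4 and Igf2bp1, from the gene boundary. The Hmga2 region 76.4 kb upstream is called by all 9 lists, and the Igf2bp3 region about 3.15 kb upstream is called by all 3 E11.5 lists and by no E12.5 list.

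Lin28a (chr4:134003330-134019196, minus strand, start at 134018816), the gene of the LIN28 protein of pluripotent cells, had 6 regions and none called by more than 4 lists. Its most often called region, chr4:134017312-134018351, 465 bp into the gene from the start, was called by E10.5 sample 2 with a fold of 2.25, by E11.5 sample 3 with 3.06, and by E12.5 samples 1 and 3 with 3.29 and 2.56. The fold is the authors' enrichment over background at the summit and is set only against other peaks of the same list. In those lists 36.9% to 56.5% of peaks had at least its -log10 q, the measure by which ranks within a list are given here, so that the region stood in the middle of each list. The start itself lay in chr4:134018679-134018849, called only by E10.5 sample 2 with a fold of 1.87, and 99.5% of that list's peaks had at least its -log10 q. E10.5 sample 2 alone also called chr4:134019115-134019316 at the gene boundary. Upstream, E12.5 samples 2 and 3 called chr4:134037644-134037897, 18.4 kb from the gene, E12.5 sample 2 alone called chr4:134024011-134024217, and E11.5 sample 3 alone called chr4:134037983-134038067. No region of Lin28a was called by all samples of a stage.

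Lin28b (chr10:45376617-45486314, minus strand, start listed at 45470201), its paralog, had 4 regions, too few for the gene test. The region over its outer boundary, chr10:45485651-45486977, was called by all 3 E10.5 lists with folds of 4.36, 3.44 and 3.00, by E11.5 samples 2 and 3 with 4.94 and 3.36, and by E12.5 samples 2 and 3 with 2.81 and 3.92. It ranked within the top 6.10% of E12.5 sample 3 and the top 60.6% of E11.5 sample 2. The listed start lay in chr10:45469675-45470498, with 15.2 kb between the 2 regions, and that region was called only by E11.5 samples 2 and 3 with folds of 5.53 and 2.72. At the listed start, 45.9% of E11.5 sample 2 peaks and 95.7% of E11.5 sample 3 peaks had at least the region's -log10 q. The boundary was therefore called at every stage and the listed start at E11.5 alone, in 2 of its 3 lists. Of these 2 calls, that of sample 3 stood near the bottom of its list. Single lists called chr10:45473519-45473855 (E11.5 sample 2) and chr10:45400803-45401023 (E10.5 sample 1). In all, Lin28b had 2, 1 and 1 calls in the E10.5 lists, 0, 3 and 2 in the E11.5 lists and 0, 1 and 1 in the E12.5 lists. The 3 stages overlapped, and the expected means were 1.01, 1.15 and 1.51.

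Trim71 (chr9:114511268-114564369, minus strand), a let-7 target whose product represses messenger RNAs, had 12 regions, all inside the gene body and none called by more than 3 lists. No region overlapped its start. The nearest, chr9:114563823-114564358, ended 11 bp short of it and was called by 1 list, E11.5 sample 2, with a fold of 3.46. The region called most often, chr9:114524940-114525388, lay 39.0 kb into the gene and was called by E10.5 samples 2 and 3 with folds of 2.06 and 2.17 and by E12.5 sample 2 with 3.06. Regions called by 2 lists were chr9:114513606-114513831 (E10.5 sample 3 and E12.5 sample 2) and chr9:114541232-114541419 (E11.5 sample 3 and E12.5 sample 2). Of the others, E11.5 sample 3 alone called chr9:114513965-114514077, chr9:114527292-114527391 and chr9:114554632-114554991, and E11.5 sample 2 alone called chr9:114536670-114536844. E12.5 sample 2 alone called chr9:114515823-114515950, chr9:114525718-114525860 and chr9:114533812-114534018, and E12.5 sample 1 alone chr9:114541443-114541523. Their folds were 2.09 to 3.98. No Trim71 region was called by all samples of a stage.

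Hmga2 (chr10:120361268-120476469, minus strand), the let-7 target among the chromatin proteins, had 22 regions, the most of the 9 genes, and 3 of them were called by at least 8 lists. One pair lay on either side of the start. The inner one, chr10:120475150-120476451, was called by all 3 E10.5 lists with folds of 3.54, 2.62 and 2.55, by E11.5 samples 2 and 3 with 3.73 and 3.71, and by all 3 E12.5 lists with 4.48, 2.89 and 2.98. The outer one, chr10:120476516-120477336, was called by the same 8 lists with folds of 3.63, 3.00 and 3.32 in the E10.5 lists, 3.65 and 4.12 in the E11.5 lists that called it, and 4.19, 2.94 and 2.81 in the E12.5 lists. Between them lay 64 bases, which hold the start at 120476469. Only E11.5 sample 1 missed both.

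The region called by every list, chr10:120552429-120553562, lay 76.0 kb upstream of Hmga2 and is 1134 bp long. It was joined from smaller peaks, so its 9 calls need not mark a single site. The E11.5 sample 1 peak, chr10:120553211-120553393, began beyond the end of the best-ranked peak of every E10.5 and E12.5 list. With E11.5 sample 2 left out, chr10:120553131-120553562 stood apart, called by 2 E11.5 lists and no E12.5 list. With an overlap of 100 bp asked for, the region stayed whole. Its folds were 2.87, 3.12 and 2.98 in the E10.5 lists, 4.03, 5.00 and 4.49 in the E11.5 lists, and 3.85, 3.03 and 3.92 in the E12.5 lists. It was in the top 4.62% of E12.5 sample 3, the top 14.8% of E10.5 sample 2 and the top 15.9% of E11.5 sample 3, but only in the top 89.0% of E11.5 sample 1. Its standing within a list thus varied as much within stages as between them. Of the regions within 100 kb of a gene 1203, or 1.12%, were called by all 9 lists, and the Hmga2 one was the only one among the 96.

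Other Hmga2 regions were called by 4 lists or fewer. Near the far end of the gene, chr10:120365507-120366009 was called by E10.5 sample 2, E11.5 samples 2 and 3 and E12.5 sample 2 with folds of 2.5 to 3.91. Upstream, chr10:120528082-120528565, 51.6 kb from the gene, was called by E10.5 samples 1 and 3 and E11.5 sample 3 but no E12.5 list, and chr10:120563135-120563410, 86.7 kb from it, by E11.5 sample 3 and E12.5 samples 1 and 2 but no E10.5 list. These upstream regions lie on either side of the one called by all 9 lists. E11.5 samples 2 and 3 both called chr10:120399906-120400142 inside the gene. E12.5 sample 1 alone called chr10:120296960-120297066, chr10:120297136-120297205, chr10:120378820-120378916, chr10:120400966-120401325, chr10:120482469-120482599 and chr10:120573196-120573311. E12.5 sample 2 alone called chr10:120298402-120298644 and chr10:120477609-120477773, and E10.5 sample 1 alone chr10:120504972-120505156. E11.5 sample 2 alone called chr10:120417850-120417993, chr10:120422267-120422415, chr10:120461836-120462300 and chr10:120564672-120564980, and E11.5 sample 3 alone chr10:120385123-120385406 and chr10:120385917-120386038. Folds of the single calls ran from 2.81 to 5.47.

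**Figure D2:**
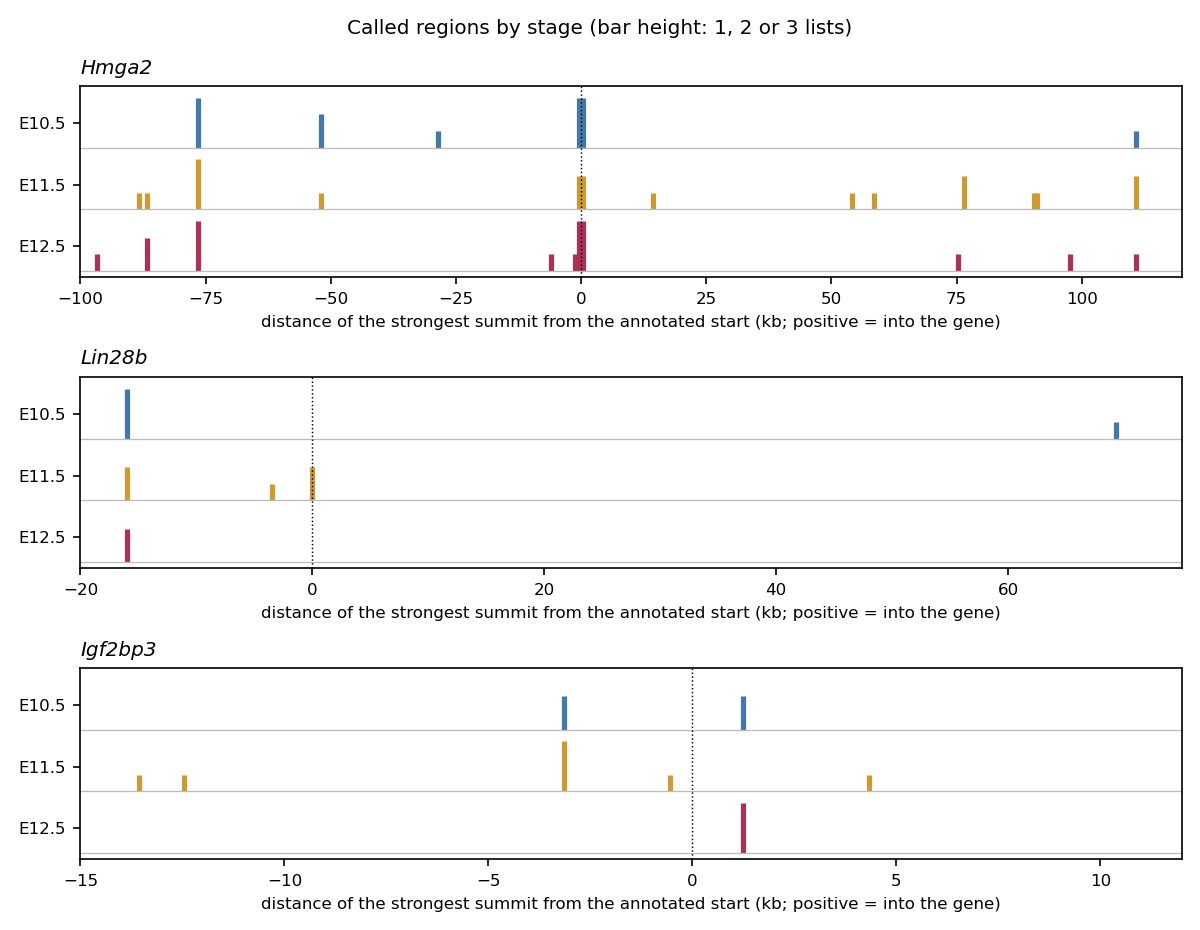
Regions of Hmga2, Lin28b and Igf2bp3 are drawn at the distance (kb) of their strongest summit from the annotated start, with positive values running into the gene; each stage has its own line and the bar height is the number of its 3 lists that called the region. Regions farther off than the axis are not drawn. Bars of 3 lists stand at the Hmga2 start at E10.5 and E12.5 and 76.4 kb upstream at all 3 stages; in Igf2bp3 the upstream bar has no E12.5 list and the inner bar no E11.5 list.

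Hmga1 (chr17:27556574-27563672, plus strand, starts at 27556574 and 27556604), the paralog of Hmga2, had 5 regions, all upstream of the gene. None was called by an E10.5 list. The longest, chr17:27555078-27556053, ended 521 bp from the gene and was called by E11.5 samples 2 and 3 with folds of 4.16 and 2.58. The one nearest to the start, chr17:27556299-27556423, was called only by E11.5 sample 3 with a fold of 2.26. Further out, chr17:27547360-27547573 was called by E11.5 sample 3 and E12.5 sample 2, chr17:27541565-27541697 by E11.5 sample 3 alone and chr17:27543757-27543908 by E12.5 sample 2 alone. The calls of Hmga1 therefore came from 3 lists, and 4 of its 5 regions included E11.5 sample 3.

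Igf2bp1 (chr11:95957163-96005944), a let-7 target that binds fetal messenger RNAs, had 8 regions. The strongest by rank, chr11:96006369-96007674, lay 425 bp outside the gene boundary and was called by every list but E11.5 sample 1. Its folds were 3.87, 2.96 and 3.85 in the E10.5 lists, 5.24 and 4.16 in the E11.5 lists that called it, and 5.07, 3.38 and 3.99 in the E12.5 lists. It was in the top 4.53%, 10.7% and 1.12% of the E10.5 lists, the top 34.8% and 13.6% of E11.5 samples 2 and 3, and the top 2.46%, 2.25% and 0.799% of the E12.5 lists. Its -log10 q was at least 5 in all 8 lists, which held for no other named region of the 9 genes. A neighbour over the boundary itself, chr11:96004919-96006157, was 211 bases away and was called by all 3 E10.5 lists, E11.5 sample 3 and E12.5 samples 1 and 2, with folds of 2.60 to 3.26. This neighbour is made of smaller peaks, since it came apart into 4 pieces when an overlap of 100 bp was asked for. Within the gene, chr11:95982550-95983119 was called by E10.5 samples 1 and 2, E11.5 samples 2 and 3 and E12.5 sample 3. E12.5 sample 2 alone called chr11:95959287-95959509 and chr11:95968073-95968198, E11.5 sample 3 alone chr11:95974052-95974160, and E11.5 sample 2 alone chr11:95990946-95991178 and chr11:95991469-95991728.

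Igf2bp2 (chr16:22059009-22163299, minus strand), the paralog that stays on in many adult tissues, had 12 regions, with a pair of often called ones at its start. The region over the start, chr16:22163258-22163850, was called by E10.5 samples 1 and 3 with folds of 3.50 and 2.36, by E11.5 samples 2 and 3 with 3.61 and 3.18, and by all 3 E12.5 lists with 3.38, 3.00 and 2.69. The inner region, chr16:22162009-22162995, 304 bp into the gene, was called by E10.5 samples 1 and 2 with folds of 3.17 and 3.38, by E11.5 samples 2 and 3 with 3.81 and 3.87, and by all 3 E12.5 lists with 3.93, 2.30 and 3.21. The pair was 262 bases apart, and each E10.5 list called at least 1 of its regions. Upstream, chr16:22189130-22189601, 25.8 kb from the gene, was called by E10.5 sample 2, E11.5 sample 3 and E12.5 sample 2. Its neighbour chr16:22188617-22188899 was called by E12.5 samples 1 and 2 only, and chr16:22119629-22119846 inside the gene by E11.5 sample 3 and E12.5 sample 2. E12.5 sample 1 alone called chr16:22070398-22070559, chr16:22101976-22102040 and chr16:22148108-22148306, and E12.5 sample 2 alone chr16:22062607-22062834. E11.5 sample 3 alone called chr16:22174735-22174834 and chr16:22202455-22202536, and E10.5 sample 1 alone chr16:22087289-22087435. Igf2bp2 had 9 regions called by at least 1 E12.5 list, against 4 at E10.5, and all 96 regions together had 54 against 30. Expected calls of Igf2bp2 per list were also higher, with means of 3.94 at E12.5 and 2.42 at E10.5.

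Igf2bp3 (chr6:49085218-49215469, minus strand, start at 49214954), a fetal member of the family, had 11 regions, and 2 of them had opposite patterns at E11.5. The outer one, chr6:49217746-49218282, 2.28 kb outside the gene, was called by E10.5 samples 2 and 3 with folds of 2.83 and 2.65, by all 3 E11.5 lists with 4.75, 6.85 and 5.34, and by no E12.5 list. By -log10 q it was in the top 29.1% and 53.7% of the 2 E10.5 lists and the top 54.9%, 12.7% and 9.60% of the E11.5 lists. The inner one, chr6:49213261-49214209, 745 bp into the gene from the start, was called by E10.5 samples 1 and 2 with folds of 2.74 and 2.75, by no E11.5 list, and by all 3 E12.5 lists with 3.39, 2.70 and 3.11. The 2 regions lay 3.54 kb apart on either side of the start, so that E11.5 lists called the outer and E12.5 lists the inner one. With an overlap of 100 bp asked for, the inner region came apart into 2 pieces, of which the larger was called by 2 E10.5 and 2 E12.5 lists. The boundary itself, chr6:49215454-49215546, was called only by E11.5 sample 3.

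The remaining Igf2bp3 regions were called by 1 or 2 lists. Sample 1 at E10.5 and sample 2 at E12.5 called chr6:49141012-49141453, and sample 3 at E10.5 and sample 3 at E11.5 called chr6:49164894-49165137. E11.5 sample 3 alone called chr6:49117168-49117270, chr6:49210458-49210710 and chr6:49227326-49227413, and E11.5 sample 2 alone chr6:49228505-49228694. E12.5 sample 1 alone called chr6:49164764-49164879 and E12.5 sample 2 alone chr6:49138945-49139062. The regions chr6:49117168-49117270 and chr6:49138945-49139062 lie in the overlap with Malsu1 and count for both genes.

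Sall4 (chr2:168748332-168767201), the zinc finger factor, had 16 regions and none called by more than 5 lists. The region over its boundary, chr2:168766788-168767289, was called by all 3 E10.5 lists with folds of 2.69, 2.30 and 2.91, by E11.5 samples 2 and 3 with 4.44 and 3.40, and by no E12.5 list. It was the only one of the 96 regions called by every E10.5 list and no E12.5 list. With an overlap of 100 bp asked for, it came apart into 2 pieces called by 2 and 1 of the E10.5 lists, and neither met that pattern. Only 1.25 kb inside the boundary, chr2:168765369-168765950 was called by E10.5 samples 1 and 2, by no E11.5 list and by E12.5 samples 2 and 3, with folds of 2.27 to 2.55. Sall4 was thus still called near its boundary at E12.5. Further in, chr2:168755487-168755820 was called by E10.5 sample 2, E11.5 sample 3 and E12.5 samples 2 and 3.

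Of the other Sall4 regions, 4 were called by 2 lists. These were chr2:168750399-168750594 (E10.5 sample 3 and E11.5 sample 3), chr2:168791264-168791522 (E10.5 sample 1 and E11.5 sample 2), chr2:168795411-168795594 (E12.5 samples 1 and 2) and chr2:168820097-168820378 (E10.5 sample 2 and E12.5 sample 1). E12.5 sample 1 alone called chr2:168745322-168745405, chr2:168787801-168787880 and chr2:168829953-168830025, and E12.5 sample 2 alone chr2:168754652-168754841, chr2:168775005-168775127 and chr2:168781541-168781905. E11.5 sample 3 alone called chr2:168755952-168756121, chr2:168766542-168766640 and chr2:168799041-168799241. The folds of these single calls were 2.23 to 3.95.

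Taking the best called region within 1 kb of each gene's boundaries, Hmga2 and Igf2bp1 reached 8 lists, Lin28b and Igf2bp2 7, Sall4 5, Lin28a 4, Hmga1 2 and Igf2bp3 and Trim71 1. So 4 of the 9 genes had a boundary region in 6 or more lists, against 24.3% of all 21627 genes. Every one of the 9 had at least 1 call there, whereas 34.6% of all genes had none. These counts describe the genes and were not tested. They also depend on the boundary used. The inner Igf2bp3 region, called by 5 lists, lay 745 bp from the listed start but 1260 bp from the boundary, so it was not counted.

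E12.5 against E10.5 spans the whole period, and no timing gene passed the test. No region was called by all 3 E12.5 lists and no E10.5 list, and 1 (the Sall4 boundary) was called by no E12.5 list and all 3 E10.5 lists. Of the 96 regions, 15 were called by at least 3 of these 6 lists and could have met either pattern. Over the series 4.55% of such regions were gained and 3.13% lost in this way. With 3 lists against 3, a single region cannot go below an exact two-sided p of 0.1, so no region was tested. When a list was left out, the pattern needed only 2 lists of that stage, and the gained regions were then 1 without E12.5 sample 1 and 3 without E12.5 sample 3, and the lost regions 2 without E10.5 sample 1 or sample 2.

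For whole genes, regions called by 1 to 8 lists were used and 8 of the 9 genes had the 5 needed. At E12.5 none of the 8 differed from E10.5 by limma at an adjusted p of 0.05 (over all 7486 genes tested, 0.0134% were called), and none had an unadjusted p under 0.05, which 656 genes had. Igf2bp3 had the lowest p. It had 2, 3 and 1 calls in the E12.5 lists, where 2.62, 4.83 and 1.89 were expected, and 2, 2 and 2 in the E10.5 lists, where 1.54, 1.92 and 1.38 were expected. The residual difference was -1.22 ± 0.83 (SE), with a limma adjusted p of 0.671. Every E12.5 residual lay below every E10.5 residual in Igf2bp3 and in Igf2bp1, against 5.76% of all tested genes, and the opposite order was seen in none of the 8, against 7.08%. In Igf2bp1 the nearest values were -0.21 in E12.5 sample 2 and -0.09 in E10.5 sample 3. They rested on 4 calls with 4.24 expected and 2 calls with 2.08 expected, both close to expectation.

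Igf2bp1 had 2, 4 and 2 calls in the E12.5 lists against 3, 3 and 2 in the E10.5 lists, with expected means of 3.22 and 2.26. Its residual difference was -1.0 ± 0.83, with a limma adjusted p of 0.777. In Igf2bp2 the calls were 6, 6 and 2 in the E12.5 lists and 3, 2 and 1 in the E10.5 lists, which is 4.67 ± 2.31 and 2.0 ± 1.0 (SD, n = 3 each, with adjusted p from limma of 0.795). Its expected means were 3.94 and 2.42, so the difference in residuals was 0.93 ± 0.85 (SE). The call groups overlapped, and expected calls were higher at E12.5 too. Sall4 had 5, 6 and 2 calls at E12.5 against 3, 4 and 2 at E10.5, and its residuals differed by -0.68 ± 0.83 (limma adjusted p 0.874). Hmga2 had 9, 6 and 2 calls at E12.5 against 4, 3 and 3 at E10.5 among its 21 tested regions, with a residual difference of -0.0019 ± 0.88 and a limma adjusted p of 0.999. Its E12.5 lists spread on both sides of the E10.5 lists. The differences were -0.04 ± 0.86 in Lin28a, 0.12 ± 0.84 in Hmga1 and -0.32 ± 0.84 in Trim71. The median over the 8 genes was -0.18, beside 0.04 over all tested genes, and 2 of the 8 were above 0, beside 51.6% of all.

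**Figure D3:**
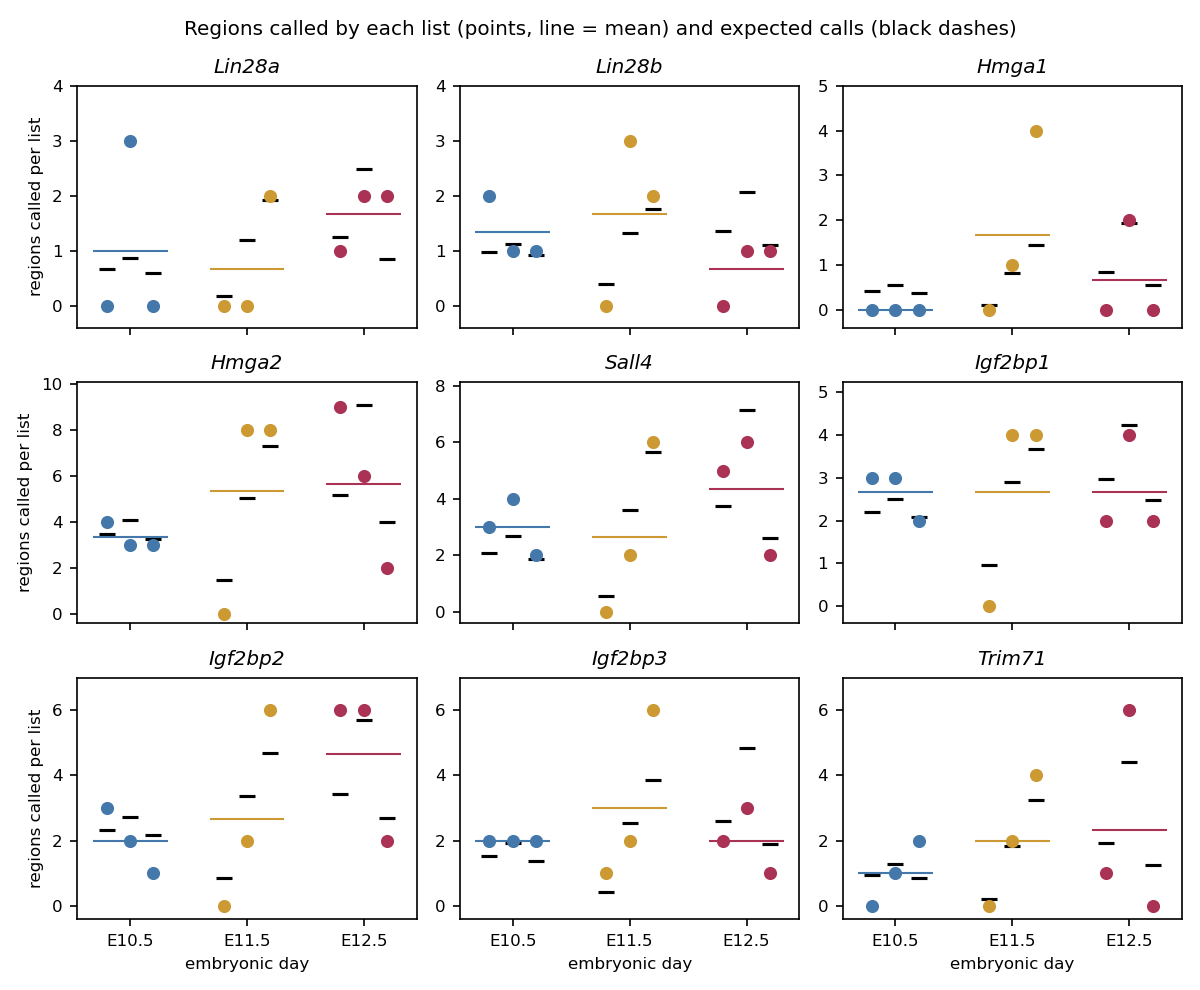
Points are the regions of each gene called by each list, grouped by embryonic day with samples 1 to 3 from left to right, coloured lines are stage means and black dashes are the calls expected from list length and region; regions called by all 9 lists are left out, and Lin28b was too small for the test. E11.5 sample 1 has 0 calls in every gene but Igf2bp3, and in Igf2bp3 the 3 E12.5 points, 2, 3 and 1, lie under their dashes while the 3 E10.5 points lie above theirs.

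E11.5 against E10.5 covers the first day. No region of the 9 genes was gained or lost, of 13 called by at least 3 of these lists, against 6.22% gained and 1.43% lost over the series. Leaving out E11.5 sample 1, the shortest list, gave 3 gained regions, and lost regions were 1 without E10.5 sample 1 or E11.5 sample 3 and 2 without E10.5 sample 3. None of the 8 tested genes passed limma, against 0.24% of all, and none had an unadjusted p under 0.05, against 748 genes. The lowest p was that of Hmga1, with 0, 1 and 4 calls in the E11.5 lists and 0, 0 and 0 in the E10.5 lists. Its residuals differed by 1.54 ± 0.84 (SE; limma adjusted p 0.559), and all E11.5 residuals lay above all E10.5 ones, as in 7.85% of tested genes. The residual of E11.5 sample 1 (-0.32) rested on 0 calls with 0.1 expected. Those of the E10.5 lists (-0.63 to -0.8) rested on 0 calls with 0.37 to 0.56 expected. For that sample the order thus reflects expected calls only. Of the 3 E11.5 lists, sample 3 supplied 4 of the 5 calls. No gene of the 8 showed the opposite order, against 9.83% of all. Sall4 had 0, 2 and 6 calls in the E11.5 lists against 3, 4 and 2 in the E10.5 lists, and its residuals differed by -1.14 ± 0.83 (limma adjusted p 0.699). Differences were -0.85 ± 0.86 in Lin28a, 0.42 ± 0.88 in Hmga2, -0.37 ± 0.83 in Igf2bp1, -0.03 ± 0.85 in Igf2bp2, 0.29 ± 0.83 in Igf2bp3 and 0.04 ± 0.84 in Trim71. The median was 0.00, beside -0.17 over all tested genes, and 4 of the 8 were above 0, beside 42.3%.

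E12.5 against E11.5 covers the second day and shares its E12.5 lists with the first comparison and its E11.5 lists with the one before. The inner Igf2bp3 region was gained and the outer one lost, each 1 of 15 regions called by at least 3 of these lists, against 4.72% gained and 10.7% lost over the series. Without E11.5 sample 1 there were 5 lost regions and without E11.5 sample 2 there were 2, and without E12.5 sample 1 or sample 3 there were 3 gained. None of the 8 genes passed limma, against 3.23% of all, and none had an unadjusted p under 0.05, against 1301 genes. The lowest p was again that of Igf2bp3, with 2, 3 and 1 calls in the E12.5 lists and 1, 2 and 6 in the E11.5 lists. Its residuals differed by -1.51 ± 0.83 (SE; limma adjusted p 0.337), and all E12.5 residuals lay below all E11.5 ones, as in 7.31% of tested genes. The nearest values were -0.50 in E12.5 sample 1 and -0.44 in E11.5 sample 2. No gene showed the opposite order, against 13.2%. Hmga1 had 0, 2 and 0 calls in the E12.5 lists against 0, 1 and 4 in the E11.5 lists and a residual difference of -1.42 ± 0.84 (limma adjusted p 0.384). Differences were 0.81 ± 0.86 in Lin28a, -0.42 ± 0.88 in Hmga2, 0.46 ± 0.83 in Sall4, -0.63 ± 0.83 in Igf2bp1, 0.97 ± 0.85 in Igf2bp2 and -0.37 ± 0.84 in Trim71. The median was -0.39, beside 0.26 over all tested genes, and 3 of the 8 were above 0, beside 58.1%.

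**Figure D4:**
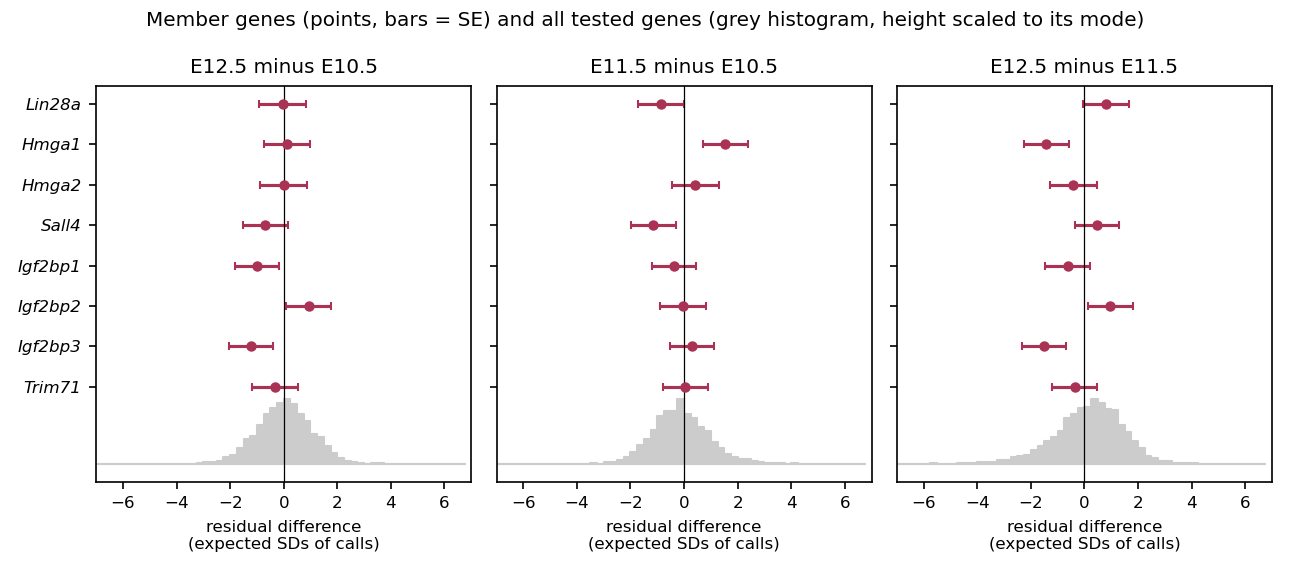
Points are the residual differences of the 8 tested genes in the 3 comparisons, in units of the expected standard deviation of calls, with bars of 1 SE; the grey histogram at the foot shows all 7486 tested genes, with its height scaled. All 8 points of each panel lie within the bulk of the histogram, the lowest being Igf2bp3 at -1.51 for E12.5 minus E11.5 and the highest Hmga1 at 1.54 for E11.5 minus E10.5.

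The genes around the LIN28 and let-7 axis were followed in the same fit through 3 lists. Of the Lin28 and let-7 machinery 16 genes were in the annotation and 7 had enough regions, of let-7 targets and growth factors 24 and 17, and of early embryonic and pluripotency factors 20 and 11. None of the tested genes passed limma in any comparison. For E12.5 against E10.5 the median residual difference was 1.12 in the machinery list, 0.21 among let-7 targets and -0.62 among early factors, beside 0.04 over all tested genes. In the machinery list the lowest p was that of Ago2, an effector of microRNA silencing, with 5.67 ± 2.08 calls at E12.5 and 1.00 ± 1.00 at E10.5 (SD, n = 3 each), where 4.16 and 1.88 were expected. Its residual difference was 1.79 ± 0.84 (SE; limma adjusted p 0.541). Msi1, an RNA-binding partner of LIN28, had 5.00 ± 1.73 calls at E12.5 and 1.00 ± 1.00 at E10.5, where 3.47 and 1.68 were expected. Its residual difference was 1.72 ± 0.84 (SE; limma adjusted p 0.558). Among let-7 targets Plagl1, an imprinted zinc finger gene, had a residual difference of -1.9 ± 0.84 (SE), with a limma adjusted p of 0.515. Among early factors Prdm14 had -2.01 ± 0.87 and Sox2 -1.25 ± 0.83, with limma adjusted p of 0.498 and 0.664.

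In E11.5 against E10.5 the list medians were -0.01, -0.45 and -1.12 in the same order, beside -0.17 over all tested genes. Among early factors the lowest p values were those of Nr6a1, a nuclear receptor that represses pluripotency genes, at 2.63 ± 0.82 (limma adjusted p 0.168) and Sall3, a relative of Sall4, at -2.55 ± 0.84 (0.214). Plagl1 was at -1.81 ± 0.84 (0.453) among let-7 targets, and Dicer1, which cuts microRNA hairpins, at 0.79 ± 0.84 (0.817) and Ago2 at 0.53 ± 0.84 (0.894) in the machinery list. For E12.5 against E11.5 the medians were 1.06, 0.04 and 1.16, beside 0.26. The gene closest to the threshold was Nr6a1, with 2.0 ± 1.0 calls at E12.5 and 4.00 ± 1.73 at E11.5 (SD, n = 3 each), where 2.95 and 2.26 were expected (residual difference -2.61 ± 0.82, limma adjusted p 0.055). Sall3 was at 2.16 ± 0.84 (0.145), Msi1 at 1.88 ± 0.84 (0.217), Arid3a at 1.65 ± 0.83 (0.286), Igf1r at 1.32 ± 0.83 (0.416) and Ago2 at 1.26 ± 0.84 (0.451). None of these genes passed the threshold.

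The let-7 hairpins were looked up after the data had been seen. The 9 mature 5p forms of the family share the seed at bases 2 to 8, and 3 are shown with the seed in capitals because regions lay near their hairpins.
let-7i-5p (chr10:122985698-122985719, minus strand): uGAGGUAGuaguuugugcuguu
let-7e-5p (chr17:17830366-17830387, plus strand): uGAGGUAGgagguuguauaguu
let-7a-5p: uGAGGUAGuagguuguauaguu
Of 12 hairpins of the family, 3 had a region within 5 kb. The matching share over other hairpins or genes is not given here, so this count is a description only. The hairpin of let-7i lay inside chr10:122985626-122985786, called by E10.5 samples 1 and 3 and E11.5 sample 3, and 306 bp from it chr10:122986030-122986580 was called by E10.5 sample 2 and E11.5 samples 2 and 3. No E12.5 list called either, and a difference between stages was not tested there. A further region, chr10:122987745-122987903, was called by E11.5 sample 3 alone. At let-7e, chr17:17827173-17828662, 1690 bp from the hairpin, was called by all 9 lists. It was flanked by chr17:17826559-17827043, in E10.5 sample 3 and E11.5 samples 2 and 3, and by chr17:17828716-17828980, in E11.5 samples 2 and 3. The Mirlet7a-2 hairpin, 1 source of let-7a, had 1 region 3686 bp away, called by E11.5 sample 3. For the other 9 hairpins no region was called within that distance in any list.

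Likeness between genes was measured as the Pearson r of residuals over the 9 lists, among 3212 tested genes with 10 or more regions. The highest were Iqsec2 (0.968) and B3galt5 (0.962) for Lin28a, Dab1 (0.96) and Smad6 (0.946) for Hmga2, Patj (0.962) and Slc7a14 (0.904) for Hmga1, and Sv2b (0.962) and Kalrn (0.911) for Sall4. For the IGF2BP genes they were Pgm1 (0.883) and Grb10 (0.882) for Igf2bp1, Cnst (0.976) and Map10 (0.932) for Igf2bp2, and Ifnar1 (0.925) and Pcdhga1 (0.908) for Igf2bp3. For Trim71 they were Sox14 (0.933) and Dis3l2 (0.884), the nuclease that degrades let-7 precursors tailed by the LIN28 pathway. All genes share the same 9 lists, and the highest of 3212 values over 9 points is high by selection, so these values are a description.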

How the data were processed

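ATAC-seq peak lists of 9 maxillary mesenchyme samples, 3 at each of E10.5, E11.5 and E12.5, were used. Per the submitters' processing notes the tools were MACS2, Bowtie2 and deepTools 3.3.1 and the build was mm10; per the labels blacklisted regions had been removed from the peaks. The handling of the transposase offset, duplicates and runs, and the peak threshold are not stated in the material at hand. The deposited lists give, per peak, a fold enrichment at the summit (a ratio) and the authors' -log10 p-value and -log10 q-value. The smallest deposited -log10 q was 1.30 to 1.32. These values were used only within a list. No read counts are given, so depth and read-level precision are unknown.

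Peaks on the 19 autosomes and X overlapping by 1 bp or more were merged. Genes were the 21627 protein-coding ones of the RefSeq table of GRCm38.p6, which gives no strand. Strand and starts came from the RefSeq promoter table, which matched 7 of the 9 genes, and distances for Sall4 and Igf2bp1 are from the gene boundary. Regions equally near to several genes count for each. Exons and introns were not separated.

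Expected calls came from a logit model with additive terms for region and list, conditional on the number of lists calling the region. Genes needed 5 such regions, each called by 1 to 8 lists, and were tested in R 4.3.3 with limma 3.58.1, stage being the factor over 9 lists, and Benjamini-Hochberg adjustment over 7486 genes at 0.05. The variance is mostly pooled over genes (prior degrees of freedom 97.7). Other steps used SciPy 1.17.1, pandas 2.3.3, NumPy 2.4.6 and Matplotlib 3.10.9 in Python 3.11.15. Regions were named if called by 6 or more lists or all 3 of a stage, or if over a start; for the pathway lists the 2 lowest p per comparison were named, except for 1 gene that is not reported here. The members and lists were chosen with earlier results of these data known. Alternatives covered the peak threshold, list length, overlap, assignment, the regions and genes tested, the expected calls, the variance, the sample number and leaving out each list.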

Additional observations from a re-analysis of the deposited data

How the results depend on the processing

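No member gene passed the threshold under any alternative (0 of 414 values, lowest limma adjusted p 0.0607), and 381 of the 414 residual differences kept their sign. Genes called over all 7486 numbered 1, 18 and 242 for E12.5 against E10.5, E11.5 against E10.5 and E12.5 against E11.5. In that order they were 9, 0 and 81 with peaks of -log10 q of at least 5, 3, 0 and 47 with lists cut to the 5682 best peaks, and 8, 11 and 107 with regions of 2 to 8 lists. Within 20 kb they were 0 and 9 in the first 2 comparisons, and with 10 or more regions per gene 5 and 110 in the last 2. For E12.5 against E10.5 they were 4 with an overlap of 100 bp and 0 with expected calls by boundary class or with a variance trend. Leaving out 1 list gave 0 to 8, 0 to 53 and 36 to 243, with 8 without E12.5 sample 3, 53 without E11.5 sample 3 and 36 without E11.5 sample 2.

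The loss at Sall4 was not seen with a -log10 q of at least 5, where the 1 region lost for E12.5 against E10.5 was an Hmga2 one, chr10:120476516-120477336. With lists of equal length or an overlap of 100 bp no member region was lost in that comparison (0). The Igf2bp3 gain was not seen (0) with a -log10 q of at least 5, equal lists or 100 bp, and the Igf2bp3 loss was not seen (0) with a -log10 q of at least 5. With equal lists 2 regions, that Hmga2 one and 1 at Lin28b, were lost for E11.5 against E10.5. Leaving out 1 list, named in the comparisons above, gave 0 to 3, 0 to 3 and 1 to 3 gained and 1 to 2, 0 to 2 and 1 to 5 lost regions.

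Of 33 residual differences that turned in sign, 12 did so without leaving out a list. Hmga2 was at 0.60, -1.57 and 2.17 with equal lists, at -2.49 (E11.5 against E10.5) and 2.42 (E12.5 against E11.5) with a -log10 q of at least 5, at 0.08 within 20 kb and 0.05 with 100 bp (both E12.5 against E10.5), and at -0.0035 with regions of 2 to 8 lists (E11.5 against E10.5), where Igf2bp2 was at 0.10. With a -log10 q of at least 5, Igf2bp3 was at -1.04 (E11.5 against E10.5) and Igf2bp1 at 0.97 (E12.5 against E11.5). Lin28a was at 0.40 with expected calls by boundary class (E12.5 against E10.5). Leaving out 1 list gave ranges across 0 for Hmga2 (-1.22 to 0.53, -0.08 to 1.46 and -1.87 to 0.23), Trim71 (-1.04 to 0.34, -0.46 to 0.71 and -1.07 to 0.02), Lin28a for E12.5 against E10.5 (-1.22 to 0.29), and for E11.5 against E10.5 Igf2bp1 (-0.91 to 0.38), Igf2bp2 (-0.74 to 0.46) and Igf2bp3 (-0.18 to 0.84). The causes were not tested.

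The labels do not say whether sample numbers pair the samples. Residuals of same-numbered samples correlated at -0.099 to 0.016, beside -0.127 to 0.13 for different numbers, and 1 of 9 lists correlated best with its own number. No pairing was visible, but such weak values cannot decide whether litters or days were shared. With the number as a replicate block 1, 22 and 250 genes were called, with 0 members.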
